A study of Mus with 12 samples.

Results

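The regions described here are stretches of the mouse liver transcriptome in which m6A peaks reached 1000 bases or more. Peaks of the 6 lists, 1 per mouse, were merged into regions wherever they overlapped by at least 1 base, and a region was kept when at least 3 lists had a peak of at least 1000 bases in it. This gave 2338 long regions of 18374 regions in all (12.7%), named for 2153 genes. The mice were male C57BL/6J, 6 weeks old at the start, and were fed for 12 weeks a high-fat diet with 60% of its energy from fat (HFD 1 to HFD 3) or a low-fat diet with 10% (WT 1 to WT 3). Both groups were of the same strain and sex, and the name WT stands here for the low-fat diet. Because the characteristics of the control samples also read HFD, titles decided the group of each sample. Each list holds the peaks of an m6A immunoprecipitate over its own input, and the input libraries were not analysed here.

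N6-methyladenosine is an internal mark of mRNA, written by a nuclear methyltransferase complex around Mettl3 and Mettl14 and read by proteins such as the Ythdf family, which act on the decay and translation of the marked transcript. In mammals the mark is dense in long internal exons and around stop codons, and genes without introns or with few introns are often heavily marked. In MeRIP-seq the RNA is broken into fragments and pulled down with an antibody, so that a peak covers every neighbouring site that the fragments cannot separate. A long peak is therefore a long stretch of continuous enrichment and does not give the number of methylated adenosines. Peak length here is the distance on the genome between the first and last base of the peak, as the lists give it.

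The lists held 10109 to 12966 peaks, of which 18.2% to 20.9% were at least 1000 bases long. The lists carry no read counts, which leaves the depth behind each peak unknown, and no counting interval could be set. The lists of HFD 1, HFD 2 and WT 3 were the longest. Of 20 skeletal muscle genes, WT 2 listed 14 and WT 3 listed 17, and each of the other 4 libraries listed 2. None of these muscle genes had a long region by the rule above, and the Ttn peaks of 14497 bases in WT 2 and 17106 bases in WT 3, found in 2 lists only, did not qualify. Of 10 hepatocyte markers 2 to 3 had a peak in each library, so most defining markers of the tissue had no m6A peak, which does not show that they were not expressed. The data come from whole liver, in which fewer cells of a type and less RNA per cell cannot be told apart.

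The long regions were found in most libraries. A long peak was present in all 6 lists in 1204 regions (51.5%), in 5 lists in 434, in 4 lists in 294 and in 3 lists in 406. A peak of any length was present in all 6 lists in 1510 of the 2338 long regions (64.6%), against 4735 of the 9213 other regions found in at least 3 lists (51.4%). A further 704 regions had a long peak in 1 list and 447 in 2 lists and did not qualify. Taking for each region the median over libraries of its longest peak, the middle of the distribution was 1527 bases, with quartiles at 1215 and 2115 bases and a range from 814 to 8596 bases. That median was at least 2000 bases in 666 regions, at least 3000 in 180, at least 4000 in 68 and at least 5000 in 26. Long regions held 17.7% to 20.8% of the peaks of each library and 51.1% to 58.6% of its peak bases, which follows from how they were chosen.

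The longest regions lay in genes of very different kinds, which include cytoskeletal linkers, transcriptional regulators, a splicing cofactor and an interferon-induced GTPase. Spen, a transcriptional repressor that binds RNA, had a peak of 8020 bases in all 6 libraries (chr4:141471370-141479389, GRCm38). Plec, which encodes the cytoskeletal linker plectin, had a peak of 7412 bases in all 6 libraries (chr15:76170974-76178385). Ankrd11, which encodes a regulator of chromatin, had a peak of 6518 bases in all 6 libraries (chr8:122889639-122896156). In these 3 genes the length was the same to the base in every mouse. The same held for Son, a splicing cofactor of nuclear speckles, with 5970 bases in all 6 libraries (chr16:91654611-91660580). The region of Nfib, a transcription factor of the nuclear factor I family, varied in length (chr4:82290173-82296811), with 6099, 6636 and 6317 bases in HFD 1 to HFD 3 and 6295, 6440 and 6639 bases in WT 1 to WT 3. Its fold enrichment, the ratio of immunoprecipitate to input, was 59.97, 55.5 and 42.9 in HFD 1 to HFD 3 and 49.6, 50.3 and 42.4 in WT 1 to WT 3. All 6 Nfib peaks were long and among the more strongly enriched, and neither diet stood apart in length.

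Apc, a scaffold of the complex that degrades beta-catenin, shows how a split call shortens the longest peak (chr18:34312005-34319247). Its longest peak measured 4768, 7243 and 7035 bases in HFD 1 to HFD 3 and 7091, 7085 and 7147 bases in WT 1 to WT 3. HFD 1 was the shortest, but there the region was called as 2 peaks with a summed length of 6932 bases, close to the single peaks of the other libraries. The fold enrichment of the longest peak was 29.2, 22.4 and 18.8 in HFD 1 to HFD 3 and 21.3, 17.8 and 22 in WT 1 to WT 3. Hivep1, a zinc finger transcription factor, had peaks of 5939 and 5939 bases in HFD 1 and HFD 2 and 5191, 5939 and 5939 bases in WT 1 to WT 3, with no peak in HFD 3 (chr13:42154380-42160318). Gm608, a predicted gene, had peaks of 7184, 7329 and 7250 bases in HFD 1 to HFD 3 and 7183, 7187 and 7185 bases in WT 1 to WT 3. The greatest lengths of all belonged to a pair of regions listed under Gvin1, a very large interferon-inducible GTPase. The first had 8151, 8729 and 8729 bases in HFD 1 to HFD 3 and 8729, 8290 and 8463 bases in WT 1 to WT 3 (chr7:105895119-105903847) and the second 8151, 8400 and 8729 bases in HFD 1 to HFD 3 and 8729, 8409 and 8463 bases in WT 1 to WT 3 (chr7:106156536-106165264). Only the second lies inside the RefSeq bounds of Gvin1, and since both have nearly the same lengths, reads of near-identical copies may be shared between them and their values are uncertain.

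**Figure D1:**
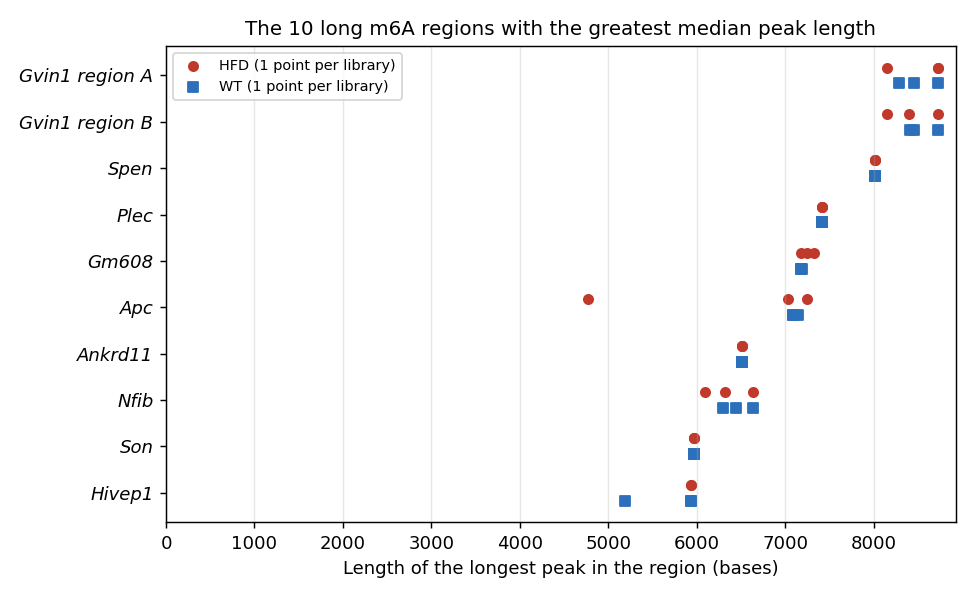
Longest peak (bases, horizontal axis) of the 10 long regions with the greatest median length, 1 point per library, with red circles for HFD 1 to HFD 3 and blue squares for WT 1 to WT 3. Spen, Plec, Ankrd11 and Son have 1 length in all 6 libraries (8020, 7412, 6518 and 5970 bases), and the Apc point at 4768 bases is HFD 1, where the region was called as 2 peaks.

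The position of the ends varied more in long regions than in the others. Of the 1510 long regions with a peak in all 6 lists, 342 (22.6%) had the same first and last base in every list, 891 (59.0%) shared 1 end and 277 (18.3%) shared neither. Among the 4735 other regions with a peak in all 6 lists, both ends were shared in 3620 (76.5%), 1 end in 997 (21.1%) and neither in 118 (2.49%). The longest of the 6 peaks was 1.20 times the shortest at the median over long regions, at least 1.5 times in 396 (26.2%), at least 2 times in 190 (12.6%) and at least 3 times in 41. Length was used to choose these regions, so no test was made of this contrast. Some shared ends lay on a RefSeq bound of the gene, as the first base of Plec and the last base of Irs1. Exon borders were not used here, and whether calls were cut at annotated borders was not tested. A region could also be split, and in 41 to 62 long regions per library the stretch was called as more than 1 peak, where 163 regions were split in at least 1 list and 5 in all 6.

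Some long regions reached the edge of their gene or filled it. RefSeq bounds on GRCm38 were available for the genes of 2290 long regions, and 2276 overlapped the gene they were listed under. Of these, 596 (26.2%) touched or crossed an outer end of the gene, against 13.8% of the other regions found in at least 3 lists. Coverage is that of the region merged over the lists, which single peaks need not fill. The median long region covered 5.63% of the span of its gene, introns included. At least 50% of the gene was covered in 166 long regions, against 56 other regions, and at least 90% in 64. Exon annotation and strand were not used here, so the regions could not be placed in exons, coding sequence or untranslated regions. The genes that were covered most fully include early response transcription factors and Wnt receptors, which are compact genes. Jun, a subunit of AP-1, lay wholly (100%) within its merged region (chr4:95049034-95052222), to which the libraries contributed longest peaks of 2872, 3006 and 3189 bases in HFD 1 to HFD 3 and 2845, 2502 and 2965 bases in WT 1 to WT 3. The peak of WT 2 was the shortest and did not span the gene alone, and Jun had a long peak in every mouse of both diets.

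Most genes carried a single long region, and a few carried several. A single long region was found in 1987 genes, 2 in 148 and 3 or more in 18, and 848 of the 2153 genes (39.4%) also had a shorter region found in at least 3 lists. Soga1 had 4. Those with 3 include the chromatin and transcription regulators Spen, Zfhx3, Zfhx4, Kmt2c, Nsd1, Ncoa6, Mga and Zfp516, the cytoskeletal linkers Macf1 and Dst, the cadherin Fat4, the myosin light chain kinase Mylk, and Slfn5 and Zscan29. They also include Gm13139 on chromosome 4 and 9930111J21Rik2 on chromosome 11, whose regions lie at separate places, some with near-equal lengths, and may share reads, so that their values are uncertain. Zfhx3, a homeobox and zinc finger transcription factor, shows the spread within a gene. Its first region had 5454 bases in all 6 libraries (chr8:108946317-108951770), and a second region had 2768 bases in all 6 libraries (chr8:108792202-108794969). Another had 2850, 2238 and 2951 bases in HFD 1 to HFD 3 and 2939, 2801 and 2308 bases in WT 1 to WT 3 (chr8:108955382-108958332), so that the length was fixed in 2 of the regions and varied in this last.

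The threshold cut through a continuous distribution. Just inside it, where the shortest of the 3 long peaks required by the rule was 1000 bases, were regions of Phf20, Dlg3 and a second region of Ankrd11. Just outside were Sgms1 and Tnrc18 at 999 bases and Prdm4 at 998 bases. A region on either side of the threshold therefore differs from its neighbours by a base or so.

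Within the long regions, peak length and fold enrichment were nearly unrelated. Among peaks of the long regions, the rank correlation of length with fold enrichment was 0.040 to 0.094 across the 6 libraries, as a description over peaks that share a library. With the score, minus 10 times the log10 of the p-value of the peak, it was 0.148 to 0.206. Choosing regions by length narrowed the range of lengths here. The median fold enrichment of long regions found in all 6 lists was 13.2, 10.5 and 8.61 in HFD 1 to HFD 3 and 10.1, 9.23 and 11.7 in WT 1 to WT 3. That of the other regions found in all 6 lists was 11.3, 10.4 and 9.52 in HFD 1 to HFD 3 and 9.59, 9.57 and 11.3 in WT 1 to WT 3. The long regions were thus higher in HFD 1, HFD 2, WT 1 and WT 3 and lower in HFD 3 and WT 2, with no test, as enrichment belongs to the same contrast as the length. The extremes were far apart. Lars2, the mitochondrial leucyl-tRNA synthetase, had the highest median over libraries (194), with ratios of 103, 153 and 252 in HFD 1 to HFD 3 and 321, 234 and 76.9 in WT 1 to WT 3. Eif3j2 followed with a median of 129. Hnrnpm, an RNA-binding splicing factor, came next with a median of 127 and ratios of 207, 136 and 117 in HFD 1 to HFD 3 and 88.8, 115 and 176 in WT 1 to WT 3, but its region is listed under 2 genes and was long in the WT libraries only. Zeb2 and Sec62 complete the highest 5, and Ssh1, Tab2, Sp3, Bgn and Sys1 had the lowest medians.

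The genes with long regions were grouped by lists of pathway and cell type genes, and each count is read against 36.7%, the share of the 5862 genes with a region in at least 3 lists that had a long one. Of 27 zinc finger and BTB transcription factors, 23 had such a region and 22 of these (95.7%) a long one. Of 32 regulators of histone methylation and chromatin, it was 25 of 30 (83.3%). Of the m6A machinery it was 9 of 12 (75%), and of immediate early and bZIP factors 12 of 16 (75%). All 4 shares were above that over all genes. Of cytoskeletal and scaffold giants, a list that also holds Spen and Bod1l, it was 13 of 20 (65%). At the other end were clock genes with 4 of 10 (40%), hepatocyte plasma proteins and enzymes with 3 of 9 (33.3%), lipid and cholesterol metabolism with 4 of 13 (30.8%) and skeletal muscle with 0 of 2. These counts describe lists that were chosen with earlier results known, and no set test was made.

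**Figure D2:**
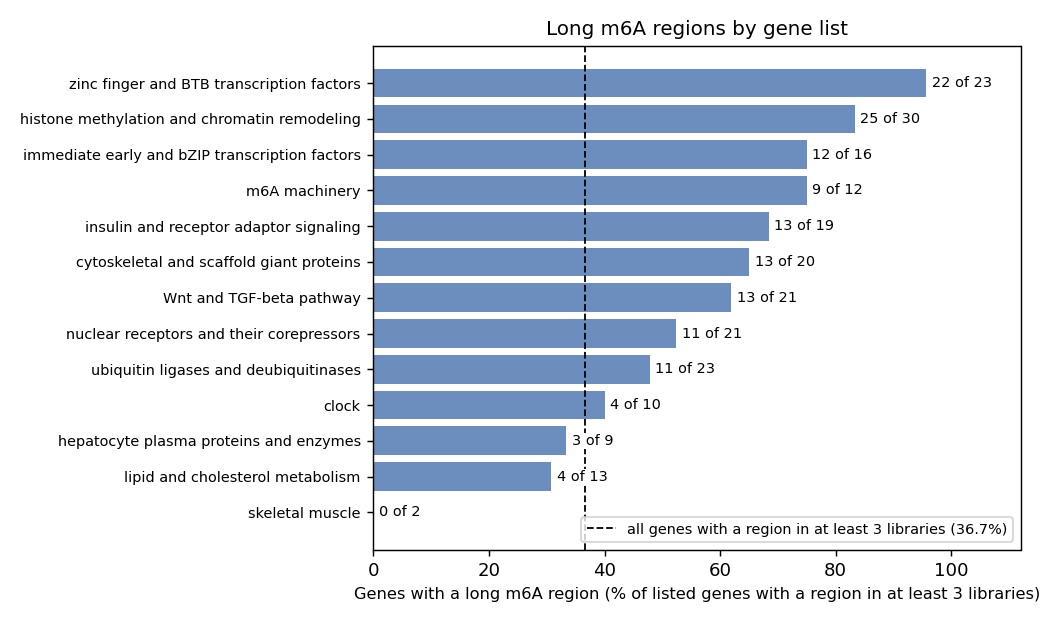
Share of the genes of each list that have a long region (%, horizontal axis), among listed genes with a region in at least 3 libraries, with the counts beside the bars. The dashed line is the share over all 5862 such genes, 36.7%, and the bars run from 95.7% for zinc finger and BTB transcription factors to 0 for skeletal muscle.

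Among transcription factors and chromatin regulators several long regions were of fixed length. Zbtb7a, a BTB and zinc finger repressor, had 4253 bases in all 6 libraries (chr10:81147970-81152222). Zeb1, a repressor of epithelial genes, had 1 region of 1805 bases in all 6 libraries and another that did not stay constant, with 1263, 1293 and 1980 bases in HFD 1 to HFD 3 and 1013, 1058 and 1075 bases in WT 1 to WT 3. In the second region every HFD library was longer than every WT library. Its fold enrichment was 54.4, 53.3 and 30.8 in HFD 1 to HFD 3 and 46.7, 51.9 and 66.1 in WT 1 to WT 3. Kdm6b, an eraser of trimethylated lysine 27 of histone H3, had 2168 bases in all 6 libraries. Crebbp, a histone acetyltransferase, had 2151 bases in all 6 libraries, so that both had fixed ends across the diets. Setd2, which writes the trimethyl mark on lysine 36 of histone H3, had 4286 bases in HFD 1 to HFD 3 and 4286, 2453 and 4286 bases in WT 1 to WT 3, and WT 2 had 2 peaks there with a summed length of 4143 bases.

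Of 21 listed genes of the m6A machinery, 15 had a peak in any library and 9 had a long region. These 9 were Wtap, Zc3h13, Cbll1, Rbm15, Rbm15b, Ythdf1, Ythdf2, Ythdf3 and Hnrnpc. The writers Mettl3 and Mettl14 and the erasers Fto and Alkbh5 were not among them. The readers of the Ythdf family were of fixed length: Ythdf1 had 1521 bases in all 6 libraries, Ythdf2 1584 bases in all 6 libraries and Ythdf3 1599 bases in all 6 libraries. Of the cofactors of the methyltransferase, Rbm15 and Rbm15b had longer peaks than these readers. Rbm15, which recruits the writer complex to RNA, had 3342, 3191 and 3200 bases in HFD 1 to HFD 3 and 3240, 3196 and 3212 bases in WT 1 to WT 3. Rbm15b, its paralogue, had 3016, 3016 and 2663 bases in HFD 1 to HFD 3 and 3016 bases in WT 1 to WT 3, the lowest being HFD 3. Wtap, the adaptor of the complex, had 1026, 940 and 1026 bases in HFD 1 to HFD 3 and 935, 1160 and 935 bases in WT 1 to WT 3, and Zc3h13, another component, had 598, 1191 and 1191 bases in HFD 1 to HFD 3 and 1191, 1191 and 586 bases in WT 1 to WT 3. Wtap and Zc3h13 lie close to the threshold, and neither separated the diets. Cbll1, an E3 ligase that belongs to the complex, had 1319, 1650 and 1533 bases in HFD 1 to HFD 3 and 1470, 1147 and 1117 bases in WT 1 to WT 3. In Cbll1 the lengths overlapped between diets, and its fold enrichment was 16.4, 9.41 and 9.54 in HFD 1 to HFD 3 and 7.21, 8.59 and 9.3 in WT 1 to WT 3, higher in each HFD library than in each WT library.

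Hnrnpc, a nuclear RNA-binding protein whose access to RNA is altered by m6A, had lengths that did not overlap between diets (chr14:52073533-52075160). Its longest peak was 1069, 1628 and 1285 bases in HFD 1 to HFD 3 and 474, 598 and 474 bases in WT 1 to WT 3. All 3 HFD peaks were above 1000 bases and no WT peak was. The region thus met the rule through its HFD lists alone, so this separation is a description and was not tested. The mean was 1327 ± 282 bases on the high-fat and 515 ± 71.6 bases on the low-fat diet (SD, n = 3 each). Its fold enrichment was 12.2, 15.4 and 15.8 in HFD 1 to HFD 3 and 15.4, 12.7 and 16.4 in WT 1 to WT 3, which overlapped between diets.

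In insulin signaling, 13 of 19 listed genes had a long region (68.4%). Irs1, an adaptor of the insulin receptor, had 4663 bases in all 6 libraries (chr1:82286777-82291439). Irs2, the second adaptor, which carries much of the signal in liver, had 3989 bases in all 6 libraries (chr8:11004470-11008458). Both peaks were called at the same length in all 6 mice, and those of Irs1 ended at the RefSeq bound of the gene. Foxo1, the transcription factor that insulin keeps out of the nucleus, had 1352 bases in all 6 libraries. Pik3r1, the regulatory subunit of phosphoinositide 3-kinase, was not constant (chr13:101682684-101685069), with 2278, 2386 and 1720 bases in HFD 1 to HFD 3 and 1601, 1633 and 1615 bases in WT 1 to WT 3. Every HFD value exceeded every WT value by at least 87 bases. The suppressors of cytokine signaling Socs2, Socs3, Socs4, Socs5 and Socs6 also had long regions.

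Among nuclear receptors and their cofactors, 11 of 21 had a long region (52.4%). Nrip1, a corepressor of hormone receptors, had the greatest median length over libraries, with 4756, 4627 and 5641 bases in HFD 1 to HFD 3 and 4757, 5600 and 5859 bases in WT 1 to WT 3. Nr5a2, the receptor LRH-1, which acts on bile acid and cholesterol genes in liver, had lengths that did not overlap between diets (chr1:136843584-136845710). Its longest peak was 1311, 1859 and 2127 bases in HFD 1 to HFD 3 and 945, 989 and 1009 bases in WT 1 to WT 3, so the HFD libraries all lay above the WT libraries. The HFD lists alone were enough to meet the rule, and of the WT lists only WT 3 had a peak of at least 1000 bases. This separation is a description and was not tested. The mean was 1766 ± 416 bases on the high-fat and 981 ± 32.7 bases on the low-fat diet (SD, n = 3 each). Its fold enrichment overlapped between diets, with 16.2, 10.4 and 8.02 in HFD 1 to HFD 3 and 10.8, 9.4 and 13.2 in WT 1 to WT 3. Nr3c1, the glucocorticoid receptor, had 1248 bases in all 6 libraries. Of the lipid and cholesterol list, Acaca, the rate-limiting enzyme of fatty acid synthesis, had 2092 bases in all 6 libraries. Abca1, which exports cholesterol from cells, had 3179 and 3252 bases in HFD 1 and HFD 2 and 2622 bases in WT 3, with no peak in HFD 3, WT 1 and WT 2, and Ppargc1b had 1102, 1102 and 1088 bases in HFD 1 to HFD 3 and 1102 bases in WT 1 to WT 3. Acaca and Ppargc1b did not separate the diets by length. Both HFD peaks of Abca1 were longer than its single WT peak, but without a peak in all 6 lists it was not compared between diets. Of the plasma proteins, F5, coagulation factor V, had 2707 bases in all 6 libraries and Apoa4 1181 bases in all 6 libraries.

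The Wnt and TGF-beta list had a long region in 13 of 21 genes (61.9%). Receptors were prominent: Fzd8 had 3040, 2964 and 3053 bases in HFD 1 to HFD 3 and 3019, 3013 and 2897 bases in WT 1 to WT 3, and its region spanned 91.2% of the gene. Its fold enrichment was low, with 6.65, 4.78 and 3.8 in HFD 1 to HFD 3 and 3.42, 3.25 and 3.72 in WT 1 to WT 3, and higher in each HFD library than in each WT library. Fzd7, also a frizzled receptor, had 3933 and 3437 bases in HFD 1 and HFD 2 and 2728 and 4560 bases in WT 1 and WT 3, with no peak in HFD 3 and WT 2, which were the libraries with the fewest long peaks. Bmpr2, a receptor of bone morphogenetic proteins, had 1280 bases in all 6 libraries. Lrp6, the Wnt coreceptor, which was placed in the insulin list, had 1035, 1223 and 1104 bases in HFD 1 to HFD 3 and 1277, 1295 and 1396 bases in WT 1 to WT 3, where each WT library was longer than each HFD library. Of the ubiquitin list, 11 of 23 genes (47.8%) had a long region. Rnf43, a ligase that removes frizzled receptors from the surface, had 2146 bases in all 6 libraries, and Trim56 had 4416, 5464 and 4834 bases in HFD 1 to HFD 3 and 2266, 6381 and 3701 bases in WT 1 to WT 3, and was called as 2 or 3 peaks in every library but WT 2. The summed lengths of Trim56 were 6610, 7610 and 6439 bases in HFD 1 to HFD 3 and 5984, 6381 and 5751 bases in WT 1 to WT 3, so that by this measure every HFD library lay above every WT library.

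At the level of libraries the diets did not separate in the long regions. The number of long regions in which a library had a long peak was 2165, 2069 and 1751 in HFD 1 to HFD 3 and 1893, 1789 and 2121 in WT 1 to WT 3. The means were 1995 ± 217 for HFD and 1934 ± 170 for WT (SD, n = 3 each), and they differed by 60.7 (two-sided exact permutation test, p = 0.8, where 3 against 3 cannot give less than 0.1). The 3 libraries with the longest lists, HFD 1, HFD 2 and WT 3, were also those with the most long peaks. Without HFD 1 the difference was -30.7, without HFD 2 -13.0 and without WT 2 -2.83, so its direction rests on single libraries. Of the 406 regions with a long peak in exactly 3 lists, 103 had it in HFD 1, HFD 2 and WT 3, against 29 in all 3 HFD and 23 in all 3 WT libraries.

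**Figure D3:**
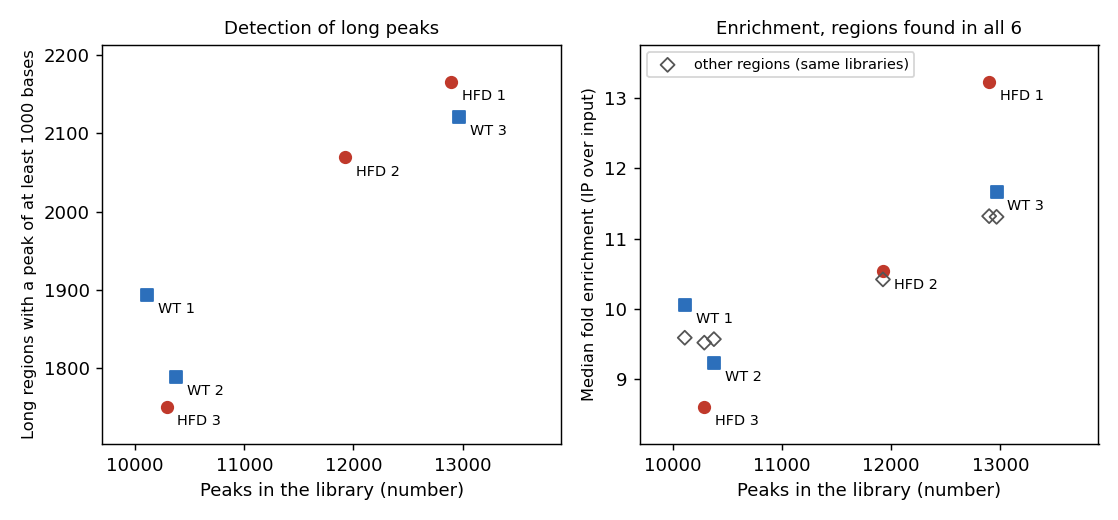
Left, long regions with a peak of at least 1000 bases (number) against the number of peaks in the library; right, the median fold enrichment of long regions found in all 6 lists against the same axis, with open diamonds for the other regions of those libraries. Red circles are HFD and blue squares WT, the vertical axes do not start at 0, and HFD 1 and WT 3, with 12898 and 12966 peaks, are highest in both panels.

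The length and the enrichment did not separate the diets either. The median length over long regions found in all 6 lists was 1569.5, 1569.5 and 1522.5 bases in HFD 1 to HFD 3 and 1553.5, 1523 and 1573 bases in WT 1 to WT 3. The means were 1554 ± 27.1 and 1550 ± 25.2 bases (SD, n = 3 each), a difference of 4 bases (two-sided exact permutation test, p = 1), and -7.08 bases without HFD 1. The median fold enrichment was 10.8 ± 2.32 in HFD and 10.3 ± 1.24 in WT mice (SD, n = 3 each), a difference of 0.475 (two-sided exact permutation test, p = 0.8), and -0.719 without HFD 1. By the median percentile within each list, which is free of the scale of the ratios, the difference was 1.58 points (69.3 ± 7.65 against 67.7 ± 4.51, SD, n = 3 each, two-sided exact permutation test, p = 0.8). All of these differences were smaller than the spread between mice.

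Single regions were counted and not tested 1 by 1, since an exact permutation of 3 mice against 3 gives no p under 0.1. In 80 of the 1510 long regions with a peak in all 6 lists (5.3%), every HFD peak was longer than every WT peak, against a background of 1.83% of all 6245 regions found in all 6 lists. In 54 (3.58%) every WT peak was longer, against a background of 1.38%. The background holds many regions with 1 fixed length, which cannot differ. Among regions whose lengths were not all equal the shares were 6.85% and 4.62% of 1168 long regions, against 4.99% and 3.77% of all 2283 and 3.05% and 2.87% of the 1115 that were not long. Members were chosen by length, and some that are counted here, such as Hnrnpc and Gxylt1, met the rule through 1 diet alone. The 2 shares of long regions are therefore descriptions. The mean length was greater in HFD in 579 regions, greater in WT in 588 and equal in 343, and the median difference was 0 bases. The gap between the groups, measured on the longest peak, was at least 100 bases in 32 of the regions longer in HFD and 14 of those longer in WT, and at least 500 bases in 5 of each. When the peaks of a split region were summed, 78 of the 80 and 51 of the 54 kept their call.

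**Figure D4:**
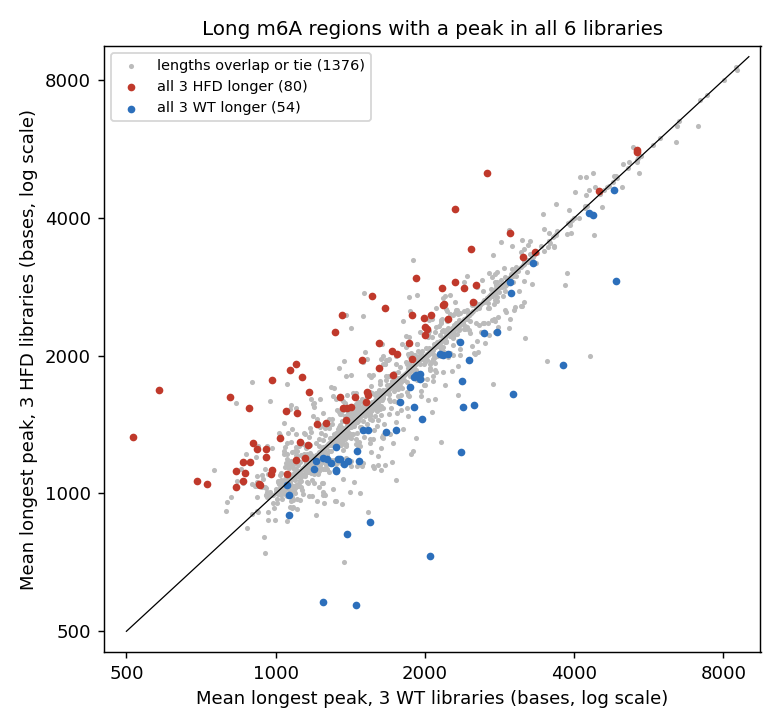
Mean longest peak of the 3 HFD libraries against that of the 3 WT libraries (bases, both axes on a log scale) for the 1510 long regions found in all 6 lists, with the line of equality. Red points are the 80 regions in which every HFD peak was longer, blue points the 54 in which every WT peak was longer, and grey points the rest, which lie on both sides of the line.

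Among the regions longer in HFD were several with regulatory roles. Zbtb4, a BTB and zinc finger protein that binds methylated DNA, had the largest gap (chr11:69777472-69781864), with 4069, 4393 and 4101 bases in HFD 1 to HFD 3 and 1864, 3056 and 1985 bases in WT 1 to WT 3. The means were 4188 ± 179 bases on the high-fat and 2302 ± 656 bases on the low-fat diet (SD, n = 3 each). The WT libraries varied, with WT 2 well above the other 2, and yet below every HFD library. Arhgef26, a guanine nucleotide exchange factor, had 1535, 1678 and 1844 bases in HFD 1 to HFD 3 and 595, 636 and 512 bases in WT 1 to WT 3 (chr3:62460204-62462047). The means were 1686 ± 155 bases on the high-fat and 581 ± 63.2 bases on the low-fat diet (SD, n = 3 each). No WT peak reached 1000 bases, so Arhgef26 met the rule through its HFD lists alone. Tmem38b, an intracellular cation channel, had 1955, 1948 and 1668 bases in HFD 1 to HFD 3 and 1068, 1069 and 1068 bases in WT 1 to WT 3. Adra2b, the alpha-2B adrenergic receptor, had 2675, 2560 and 2848 bases in HFD 1 to HFD 3 and 2041, 1576 and 1075 bases in WT 1 to WT 3, with a region covering 70.4% of the gene. Adra2b was called as 2 peaks in WT 1 and WT 3, and its summed WT lengths of 2558, 1576 and 1963 bases came within a few bases of the lowest HFD value. Card6, with a caspase recruitment domain, had 3615, 3611 and 3879 bases in HFD 1 to HFD 3 and 3020, 2803 and 3098 bases in WT 1 to WT 3. It was split in WT 2 and WT 3, where the summed lengths were 3409 and 3567 bases, just under the HFD values. Chsy1, a chondroitin synthase, had 2421, 2401 and 2529 bases in HFD 1 to HFD 3 and 1947, 1725 and 1967 bases in WT 1 to WT 3. Fam107b and Arhgef17 complete the 10 largest gaps in this direction.

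Among the regions longer in WT, Gxylt1, which adds xylose to glucosylated epidermal growth factor repeats of Notch, had the largest gap (chr15:93240412-93242908), with 767, 584 and 840 bases in HFD 1 to HFD 3 and 2312, 2147 and 1688 bases in WT 1 to WT 3. The means were 730 ± 132 bases on the high-fat and 2049 ± 323 bases on the low-fat diet (SD, n = 3 each). No HFD peak reached 1000 bases and every WT peak did, although HFD 1 had 2 peaks with a summed length of 1374 bases. Gxylt1 thus met the rule through its WT lists alone. Sox12, a transcription factor of the Sox family, had 1752, 1379 and 1556 bases in HFD 1 to HFD 3 and 2458, 2528 and 2555 bases in WT 1 to WT 3. Sall2, a zinc finger transcription factor, had 1144, 1120 and 1438 bases in HFD 1 to HFD 3 and 2161, 2479 and 2451 bases in WT 1 to WT 3, but was called as 2 peaks in HFD 1 and HFD 2, whose summed lengths of 2038 and 2049 bases lay much closer to the WT values. Dact1, a modulator of Wnt signaling, had 2048, 2006 and 1999 bases in HFD 1 to HFD 3 and 2272, 2203 and 2218 bases in WT 1 to WT 3, with 1 peak in every library. Fnip1, which binds folliculin and acts in nutrient signaling, had 774, 898 and 778 bases in HFD 1 to HFD 3 and 1103, 1961 and 1114 bases in WT 1 to WT 3. Hnrnpm had 611, 574 and 531 bases in HFD 1 to HFD 3 and 1017, 1594 and 1753 bases in WT 1 to WT 3, in a region listed under 2 genes. In Fnip1 and Hnrnpm no HFD peak reached 1000 bases, so they too met the rule through their WT lists alone. Zfp292, a zinc finger protein, had 3315, 1646 and 3757 bases in HFD 1 to HFD 3 and 4691, 4571 and 5309 bases in WT 1 to WT 3, and Sfswap, a splicing regulator, had 978, 899 and 721 bases in HFD 1 to HFD 3 and 1125, 1633 and 1897 bases in WT 1 to WT 3. Zfp292 was called as 2 to 4 peaks in every library and Sfswap as 2 in HFD 1, HFD 2 and WT 1, and in both genes the summed lengths of the diets overlapped. Gm3839, a predicted gene, and Ankrd33b complete the list.

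**Figure D5:**
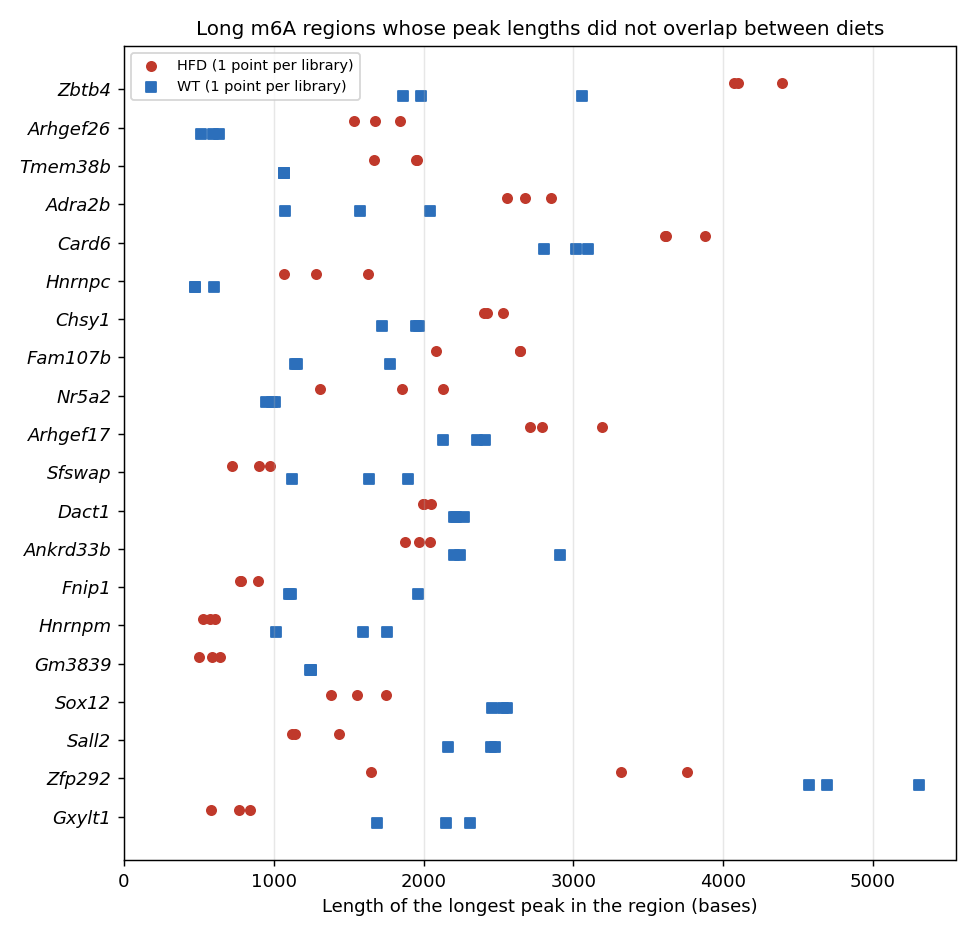
Longest peak (bases, horizontal axis) in each library of the 20 long regions with the largest gaps between diets, the 10 longer in HFD above and the 10 longer in WT below, with red circles for HFD and blue squares for WT. Zbtb4 is uppermost, with HFD points from 4069 to 4393 bases and WT points from 1864 to 3056, and Gxylt1 is lowest, with HFD points from 584 to 840 and WT points from 1688 to 2312.

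A long peak in all 3 libraries of 1 diet and in none of the other was found in 29 regions for HFD and 23 for WT, which is 0.251% and 0.199% of the 11551 regions found in at least 3 lists. Of the 29, 11 had no WT peak at all and 18 had a shorter peak in at least 1 WT library. Detection confined to the HFD libraries, with a peak in each, thus held for 11 of 2338 long regions (0.47%, background 1.14%), and the reverse for 11 (0.47%, background 0.467%). Tlr2, a receptor of bacterial lipoproteins, had 2351, 2518 and 2518 bases in HFD 1 to HFD 3 and 667 and 629 bases in WT 1 and WT 2, with no peak in WT 3. Mlh3, a DNA mismatch repair protein, had 2268, 3267 and 3323 bases in HFD 1 to HFD 3 and no peak in the WT libraries, and HFD 1 was called as 2 peaks. The fold enrichment of Mlh3 was 7.09, 4.54 and 3.83 in HFD 1 to HFD 3, against 8.41 at the median of the long regions. Bgn, which encodes the matrix proteoglycan biglycan, had 1338, 1338 and 1338 bases in HFD 1 to HFD 3 and no peak in the WT libraries, and Cd59a, an inhibitor of complement, had 1436, 1436 and 1436 bases in HFD 1 to HFD 3 and no peak in the WT libraries. The HFD lengths of Bgn and Cd59a were the same in all 3 mice. Oxsr1, a kinase of ion cotransporters, had 1957, 2713 and 1983 bases in HFD 1 to HFD 3 and no peak in the WT libraries. The same pattern without WT peaks was found in Zfp11, Cep68, Ankhd1, Dcun1d4, Cog3, Clint1 and Ctso, and the pattern with shorter WT peaks in Slfn8, Synj2, Evi2a, Ybey, Fgfr1op2, Erp29, Fuca2, Slc17a4, Ccl6, Map2k2, Map3k13, Amotl1, Akna, Ccnl2 and Tceal8 as well as Tlr2, Hnrnpc and Arhgef26. Of 7 lymphocyte markers, HFD 1 to HFD 3 had a peak in 2, 2 and 1 and the WT libraries in 0, and of 7 Kupffer cell markers HFD 1 to HFD 3 had 3, 4 and 5 and WT 1 to WT 3 had 4, 3 and 5. None of these markers had a long region, and their part in the result was not tested.

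In the other direction, 11 of the 23 regions had no HFD peak and 12 had a shorter one. Slc1a2, a glutamate transporter, had 2302, 1680 and 2397 bases in WT 1 to WT 3 and no peak in the HFD libraries. Its fold enrichment was low, with 3.75, 4.04 and 4.68 in WT 1 to WT 3, against 8.41 at the median of the long regions. Igsf11, a cell adhesion molecule, had 1857, 1991 and 1955 bases in WT 1 to WT 3 and no peak in the HFD libraries. Enpp1, which makes pyrophosphate from nucleotides, had 694 and 590 bases in HFD 1 and HFD 2 and 1547, 1463 and 1558 bases in WT 1 to WT 3, with no peak in HFD 3, and Peg3, an imprinted zinc finger gene, had 823 bases in HFD 2 and 1621, 1177 and 1079 bases in WT 1 to WT 3, with no peak in HFD 1 and HFD 3. Enpp1 and Peg3 were therefore detected in some HFD libraries at shorter lengths. Zfp865, Fam222a, Zfp595, E130012A19Rik, Nol9, Nipal1, Pkn2 and Alyref2 also had no HFD peak, and Slc39a8, Caln1, Rnf24, Fam69a and Ndufaf4 had shorter ones, as had Gxylt1, Fnip1, Sfswap, Gm3839 and Hnrnpm. A missing peak can reflect less methylation, less transcript or fewer reads, and the part of each was not tested. Apart from Mlh3 and Slc1a2, the ratios of regions without a peak in 1 diet are not given here.

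By fold enrichment, every HFD ratio exceeded every WT ratio in 51 long regions (3.38%, background 4.74%), and the reverse held in 36 (2.38%, background 3.73%). Both shares were below the background of all regions found in all 6 lists. Length and enrichment rarely moved together: of the 80 regions longer in HFD, 3 were also higher in enrichment, and of the 54 longer in WT, 1 was. Zfp292, the 1 longer in WT, had ratios of 5.91, 4.87 and 11.2 in HFD 1 to HFD 3 and 17, 18.4 and 22.2 in WT 1 to WT 3. These are ratios of the longest peak only. Zfp292 was called as 2 to 4 peaks in every library, and its summed lengths overlapped between diets. Zeb2, a repressor related to Zeb1, had ratios of 63.8, 85.5 and 70.8 in HFD 1 to HFD 3 and 92.8, 110 and 134 in WT 1 to WT 3 in a region (chr2:44987915-44989153) whose lengths overlapped between the diets. Ash1l, a histone methyltransferase, was higher in HFD, with ratios of 6.38, 5.68 and 5.5 in HFD 1 to HFD 3 and 3.7, 4.53 and 4.66 in WT 1 to WT 3. A region of Ncoa6, a nuclear receptor coactivator, was higher in WT, with 2976 bases in all 6 libraries. Its ratios were 8.04, 6.34 and 6.96 in HFD 1 to HFD 3 and 8.18, 8.35 and 8.33 in WT 1 to WT 3. The lowest WT ratio was just above the highest HFD ratio. In the other long regions of Ncoa6 the ratios overlapped between diets. These ratios were not scaled between libraries.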

How the data were processed

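Liver m6A was measured by MeRIP-seq in 3 HFD and 3 WT mice, with GenSeq m6A immunoprecipitation, a strand-specific library kit and paired-end sequencing. Per the submitters' notes, MACS2 2.1.0, Bowtie 1.1.2, Trimmomatic 0.33 and bcl2fastq 2.17 were used, with a human build. The positions were checked against RefSeq GRCm38.p6, on which the mouse genes of the lists lie. Peaks were called by the authors mouse by mouse over input. The deposited lists give peak length in bases, a fold enrichment, which is a ratio of immunoprecipitate to input unscaled between libraries, and a score of minus 10 times the log10 of the p-value, at least 50 in every peak, as is a fold of at least 2. The false discovery rate that the authors deposited is read as a percent. Gene names are those of the lists. Depth is unknown.

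Peaks were merged without strand, and the longest peak per region and library was used. Members and gene lists were chosen with earlier results of these data known. Python 3.11.15 with pandas 2.3.3 and numpy 2.4.6 was used, and the counting was tested on simulated data. Diets were compared by two-sided exact permutation over libraries, in place of the study's Student's test. The named genes are the 10 longest, every region long in 1 diet only, the 10 largest gaps in each direction, the 5 highest and 5 lowest enrichments, up to 6 genes of each list, the 3 regions on each side of the threshold, and genes with 3 or more members. Other list members with values were chosen after those were seen, and some genes that the rule takes are not reported here. Alternatives changed the length threshold, the number of lists, the peak threshold, the list length and the libraries, and the summed length was added after the data were seen.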

Additional observations from a re-analysis of the deposited data

How the results depend on the processing

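The number of long regions was 2338, and 2032 to 2223 when each library was left out in turn. It was 1204 when a long peak was asked for in all 6 lists and 1354 with stricter peaks, those not under their list's median fold enrichment. A threshold of 800 bases gave 3051 regions and 1200 bases 1790, at least 2 lists gave 2785, and lists cut to 10109 peaks gave 2186. The diet difference in the number of long peaks ranged from -30.7 to 158.5 with a library left out (reversed without HFD 1, HFD 2 or WT 2, -30.7, -13.0 and -2.83). That in median length ranged from -7.08 to 23.5 bases, and was -4.17 at 800 bases and -9.33 with the stricter peaks. That in median enrichment ranged from -0.719 to 1.55. The regions longer in HFD, 80, became 53 with all 6 lists, 44 with stricter peaks and 100 to 145 with a library left out, and those longer in WT, 54, became 34 with stricter peaks and 97 to 110 with a library left out, since fewer libraries must then agree.

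With the replicate number as a block (exact sign flips, smallest p 0.25) the differences stayed 60.7, 4 and 0.475, with p = 1, 1 and 0.75. Libraries with the same number did not correlate more than others. Their correlations were -0.0289, -0.00325 and -0.194, and those of differently numbered HFD and WT libraries ran from -0.192 to 0.212. The numbers were therefore not taken to pair the mice. These correlations served that question only and do not measure how alike the peaks of different mice were.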

Other observations

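In the annotation that the lists carry, genes with a long region held transcription terms more often than all genes with a region in at least 3 lists. Regulation of transcription was given for 353 of 1818 annotated genes with a long region (19.4%) and for 709 of 4975 annotated genes in all (14.3%), and DNA binding for 349 of 2033 (17.2%) and 699 of 5513 (12.7%). Transport was given for 6.88% and 9.59%. No test was made of these shares, and genes are not independent samples.

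By chromosome, long regions made up 17.01% of the regions found in at least 3 lists on chromosome 5 and 26.1% on chromosome 7, which had the highest share with 189 of 725. Few markers of other cell types had a long region. They were 2 of 6 endothelial genes (Kdr and Lyve1), 2 of 5 stellate cell genes (Lrat and Pdgfrb) and 1 of 4 cholangiocyte genes (Sox9). Of 4 adipocyte genes it was 0.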
